A study of Mus musculus with 9 samples.

Results

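The liver makes most of the complement and coagulation proteins of the blood, and the transcripts of 41 genes for such proteins that hepatocytes secrete were followed here in rat liver. The genes were taken by name, not by their values. Of the 41 names, 40 were found in the count table of 19686 genes, and Mbl2 was not matched. All 40 passed the filter on low counts in each comparison, so every one of them was tested. Liver RNA of 9 male Wistar rats was sequenced, 3 from each group. The control group drank purified water and the model group drank 15% fructose for 8 weeks, and both received saline by gavage. The HME group drank the same fructose solution and received by gavage 1.8 g/kg of an aqueous methanol extract of Danggui-Shaoyao-San (DSS), a formula of Chinese herbal medicine. The labels call this group DSS, and it was read as the HME group because the study took only that extract to sequencing. The labels also name the mouse as organism, but the strain label and the gene identifiers belong to the rat. All rats were fasted for 12 h before the livers were taken, so the values describe fasted male rats on water or on a fructose drink. Whole liver was used, and in such bulk RNA fewer cells of a type and less RNA per cell cannot be told apart. The values are transcript levels, and neither the plasma proteins nor their activity were measured.

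Complement and coagulation are both chains of plasma proteases that circulate as inactive precursors and activate each other in sequence. Complement starts with C1 on antibodies or with mannose-binding lectin on sugars of microbes, converges on the cleavage of C3 and C5, and ends with a pore of C6, C8 and C9 and their partners in the target membrane. Coagulation starts with tissue factor and factor VII or with the contact system, converges on thrombin, and ends with a mesh of fibrin that plasmin later dissolves. Each chain has inhibitors that the liver also secretes, and several clotting factors need vitamin K to become functional. Fibrinogen and C3 are known as acute phase proteins, whose genes respond to inflammatory cytokines.

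Total counts ranged from 14345819 to 26837227 per library. Counts for the 40 genes ranged from 96 to 292213, and 39 of them had over 1000 counts in every library, so the spread between rats and not counting error set the precision. Cfb was the exception, with 96 to 230 counts. Levels are given as CPM, a library's counts rescaled to a common total with the TMM method, as mean ± SD over 3 rats. Fold changes are on the log2 scale with their standard errors (SE) from edgeR, and FDR is edgeR's p adjusted over all genes tested. As a check of the tissue, the 9 hepatocyte markers in the table, with Alb, Ttr and Tf among them, summed to between 140736 and 233564 CPM, while the 5 bile duct markers summed to at most 33.1 CPM. The hepatocyte markers differed between the groups themselves. They summed to 140736 to 181165 CPM in the control rats, 182542 to 233564 CPM in the model rats and 177543 to 222635 CPM in the HME rats, and all 9 had a positive fold change in the model group against the control group. The median of those changes was 0.34 in model against control, and that of the 9 changes in HME against control, all positive too, was 0.26. With edgeR, 0 of the 9 reached an FDR of 0.05 in model against control (lowest 0.296), where 0.601% of all genes did. In HME against control 2 of the 9 did, where 7.21% of all genes did. The rats on fructose lay above all control rats in 3 of the 9 for the model group (11.1% of all genes) and 4 for the HME group (14.9%). Markers of other cells mostly had the opposite sign in model against control, with a negative change in 7 of 7 stellate, 7 of 8 Kupffer cell and leukocyte and 5 of 6 endothelial markers tested, at medians of -0.16, -0.27 and -0.12 and with 0 of them at an FDR of 0.05 with edgeR (2 of them lower and 1 higher at an unadjusted p under 0.05). Their sums overlapped between the groups, with 265 to 299.7, 191 to 304 and 255 to 362 CPM for stellate, 246 to 593, 184 to 409 and 253 to 347 CPM for Kupffer cell and leukocyte, and 199 to 288, 154 to 342 and 205 to 285 CPM for endothelial markers in the control, model and HME rats. Bile duct markers went the other way in model against control, with 2 of 3 tested positive at a median of 0.83. Red blood cell and platelet markers were negative in 3 of 4. In HME against control the signs were mixed, with 4 stellate markers positive and 3 negative, and 3 and 3 endothelial markers. There 3 Kupffer cell and leukocyte markers were positive and 7 negative. The part of these markers in the results was not tested.

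With edgeR, none of the 40 genes met the thresholds of the study in any comparison (FDR of 0.01 or less and a log2 fold change of 0.5 or more in size), while DESeq2 gave 1 in model against control, 0 in HME against model and 7 in HME against control. In the model group against the control group, 34 genes had a positive and 6 a negative fold change, where 50.1% of all genes were negative, and the median was 0.23 against -0.00 for all genes tested. That median was -0.02, with 19 genes positive and 21 negative, when the libraries were scaled to the hepatocyte markers instead. Across all genes edgeR gave 0.0801% at the thresholds of the study and 0.601% at an FDR of at most 0.05, and DESeq2 gave 1.24% and 2.22%. Of the 40, 0 reached an FDR of 0.05 with edgeR and 2 did with DESeq2, F11 and C1r. At an unadjusted p under 0.05 there were 13 genes, all higher in the model group, and 6.84% of all genes were higher and 6.36% lower at that level. The 3 model rats lay above all 3 control rats in 20 of the 40 genes and below them in 0, where 11.1% of all genes and 20.1% of the 1501 genes with over 1000 counts in every library lay above and 9.94% of all genes below.

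In the HME group against the model group, 26 genes were positive and 14 negative, where 49.9% of all genes were negative, with a median of 0.08 that was 0.01 after scaling to the hepatocyte markers. No gene of the 40 reached an FDR of 0.05 with edgeR or with DESeq2, where edgeR called 0.456% of all genes at that FDR, 0.12% as higher, and 0.136% at the thresholds of the study. With an unadjusted p under 0.05 there were 3 higher genes, Klkb1, Masp1 and C1s, and 1 lower gene, Cfb, and 8.02% of all genes were at that level, 4.49% as lower. The HME rats lay above all model rats in 5 genes, Masp1, C1s, C3, C8a and Klkb1, and below them in Cfb. Across all genes 6.17% lay above and 7.86% below, and 8.79% of those with over 1000 counts in every library lay above. After scaling to the hepatocyte markers the counts were 0 above and 7 below, where 11.9% of all genes did not overlap in either direction.

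With TMM scaling, the largest median difference was that between the HME and control groups. There 37 genes were positive and 3 negative, where 50.9% of all genes were negative, with a median of 0.30 that was 0.00, with 20 positive and 20 negative, after scaling to the hepatocyte markers. The 5 genes F11, Masp1, C1r, F13b and F9 rose at an FDR of 0.05 with edgeR and none fell, where 7.21% of all genes were called in either direction, 3.54% as higher and 3.67% as lower. The count exceeds what these shares give for 40 genes by only a few genes. With 1 rat left out, F11 stayed at an FDR of 0.0364 or less, while C1r and Masp1 were at 0.0651 and 0.0573 without control replicate 2, 0.0586 and 0.0534 without control replicate 3 and 0.0560 and 0.0503 without HME replicate 1 (edgeR FDR). F9 and F13b lost the call without any one rat other than HME replicate 2, with FDR of up to 0.122 and 0.0917. At the thresholds of the study there were 0 with edgeR, which 1.48% of all genes met, and 7 with DESeq2, which 4.02% of all genes met. DESeq2 called 17 of the 40 at an FDR of 0.05, all higher, and 7.06% of all genes in either direction. After scaling to the hepatocyte markers edgeR called 2 as higher, F11 and C1r, and 3 as lower, C6, Hrg and Serpind1. There it called 15.8% of all genes in either direction, so that these 5 of 40 together are no more than the background. The share of all genes called as higher was not taken apart there. The HME rats lay above all control rats in 26 genes and below them in 0, where 30.2% of all genes did not overlap, 14.9% of all genes lay above and so did 24.9% of those with over 1000 counts in every library. At an unadjusted p under 0.05, 23 of the 40 were higher and 1, C6, was lower, where 24.3% of all genes were at that level, 11.9% as higher and 12.5% as lower. These comparisons share libraries, since the control and model rats each enter a pair of them, so their counts are not independent.

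**Figure D1:**
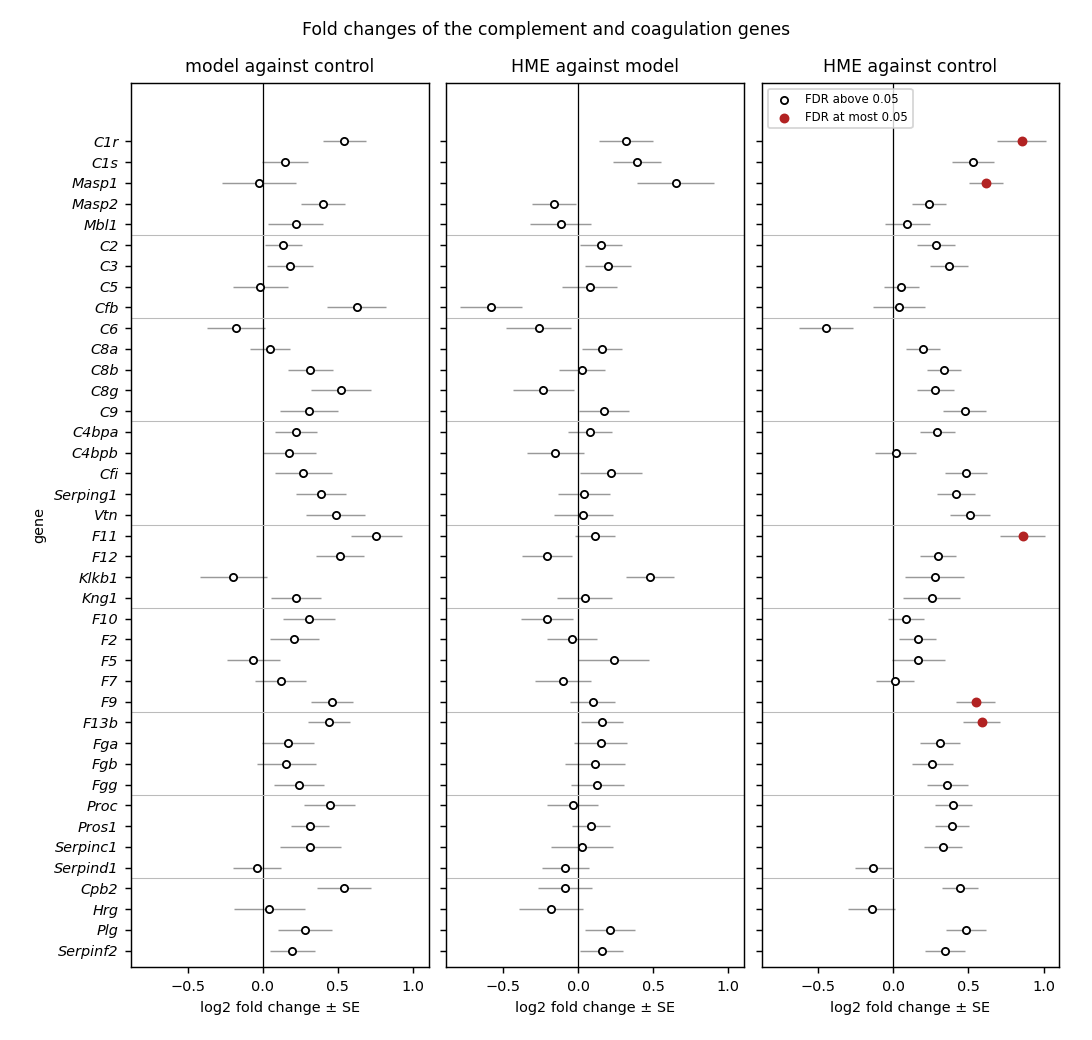
Log2 fold changes (horizontal axis, with SE) of the 40 genes (vertical axis, grouped by role) in the 3 comparisons with TMM scaling, with filled points for an FDR of at most 0.05. Only HME against control has filled points, F11, C1r, Masp1, F13b and F9. Most points there lie right of 0, a tendency that was absent after scaling to the hepatocyte markers. That scaling lowers every gene by the change of the markers, and the median of all genes fell with it.

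Among the genes that start complement, C1r and Masp1 rose in the HME group against the control group. C1r (ENSRNOG00000011796), a protease of the C1 complex, was at 604, 526 and 549 CPM in the control rats, 819, 886 and 744 CPM in the model rats and 1035, 803 and 1201 CPM in the HME rats. All 6 rats on fructose lay above all 3 control rats, and the model and HME rats overlapped. The fold change was 0.85 in HME against control (SE 0.161, edgeR FDR 0.0173) and 0.54 in model against control (SE 0.141, edgeR FDR 0.142). C1s, the protease that C1r activates, was at 642, 525 and 611 CPM in the control rats, 614, 755 and 603 CPM in the model rats and 816, 779 and 979 CPM in the HME rats. The HME rats were the highest of all 9, while the model and control rats overlapped. The change in HME against control was 0.53 (SE 0.140, edgeR FDR 0.0523) and in HME against model 0.39 (SE 0.161, edgeR FDR 0.592). In HME against control DESeq2 gave C1s an FDR of 0.00375. With edgeR it was 0.0490 with DESeq2's size factors and 0.0272 without the filter on low counts. Because C1r and C1s work as a pair, their ratio was followed too. The ratio of C1r to C1s was 0.947 ± 0.0522, 1.25 ± 0.0806 and 1.18 ± 0.126 in the control, model and HME groups, and each of the 6 rats on fructose had a higher ratio than each control rat.

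Masp1 (ENSRNOG00000001827) and Masp2 encode proteases of the lectin branch, which ride on mannose-binding lectin. Masp1 was at 114, 104 and 107 CPM in the control rats, 67.0, 147 and 107 CPM in the model rats and 186, 161 and 153 CPM in the HME rats. The model rats spread below, at and above the control level, and the HME rats lay above all others. Masp1 rose by 0.62 in HME against control (SE 0.112, edgeR FDR 0.0145), and HME against model gave 0.65 (SE 0.258, edgeR FDR 0.575). One fit over all 9 libraries, which includes the model rats in the estimate of the spread, gave Masp1 an edgeR FDR of 0.168 in HME against control. Masp2 stood at 211 ± 11.8, 279 ± 35.3 and 249 ± 16.4 CPM in the control, model and HME groups, and its 6 rats on fructose lay above the control rats. The ratio of Masp1 to Masp2 ran from 0.209 in model replicate 1 to 0.719 in HME replicate 1. Mbl1, a mannose-binding lectin, was at 195 ± 13.8, 227 ± 50.7 and 209 ± 40.9 CPM in the control, model and HME groups, with overlap between all groups.

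C3, the protein on which all branches of complement converge, was at 11185, 10419 and 10198 CPM in the control rats, 12515, 11667 and 11855 CPM in the model rats and 12577, 13989 and 14589.5 CPM in the HME rats. With TMM scaling the 3 groups did not overlap and stood in the order control, model, HME. The steps were small, with 0.18 in model against control (SE 0.154, edgeR FDR 0.663), 0.20 in HME against model (SE 0.153, edgeR FDR 0.830) and 0.37 in HME against control (SE 0.127, edgeR FDR 0.113), and none passed edgeR's test, while DESeq2 gave the last an FDR of 0.0153. As a measure without TMM scaling, C3 took 1.13 ± 0.117%, 1.16 ± 0.0644% and 1.33 ± 0.0853% of all counts in the control, model and HME groups.

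Cfb, the protease precursor of the alternative branch, had the fewest counts of the 40. It was at 5.85, 6.15 and 6.40 CPM in the control rats, 9.85, 10.9 and 7.65 CPM in the model rats and 5.98, 5.62 and 7.29 CPM in the HME rats. The model rats lay above both other groups, and the HME and control rats overlapped. Model against control gave 0.62 (SE 0.194, edgeR FDR 0.220) and HME against model -0.58 (SE 0.207, edgeR FDR 0.523). C2, the matching protease of the classical and lectin branches, was at 116 ± 8.92, 127 ± 5.73 and 141 ± 17.9 CPM in the control, model and HME groups. C5, which starts the pore, was at 727 ± 52.7, 721 ± 168 and 756 ± 38.6 CPM, and the groups of both genes overlapped in every comparison.

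No gene of the terminal pore passed the test with edgeR and TMM scaling, and the signs of their changes differed. In HME against control, DESeq2 called C8b (FDR 0.0249) and C9 (FDR 0.0131) as higher. C6 was at 282, 218 and 221 CPM in the control rats, 265, 187 and 186 CPM in the model rats and 219.7, 172 and 138 CPM in the HME rats. Its HME and control rats overlapped, and its change of -0.45 in HME against control (SE 0.178, edgeR FDR 0.160) was the largest negative one of the 40. The 3 chains of C8 were C8a, at 933 ± 31.0, 966 ± 28.2 and 1073 ± 36.3 CPM in the control, model and HME groups, C8b, at 537 ± 8.74, 668 ± 87.8 and 679 ± 45.3 CPM, and C8g, at 235 ± 13.7, 336 ± 89.5 and 285 ± 28.2 CPM. All 6 rats on fructose lay above the control rats in C8b and C8g, and C8a had the smallest coefficient of variation of the 40 genes over the 9 rats, 6.99%. The ratio of C8a to C8b was 1.74 ± 0.0336, 1.46 ± 0.167 and 1.58 ± 0.0903 in the control, model and HME groups, so the chains did not keep one proportion. C9, which forms the ring of the pore, was at 889 ± 153, 1103 ± 190.3 and 1237 ± 19.5 CPM, and its HME rats lay above the control rats.

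None of the 5 inhibitors of complement passed the test with edgeR and TMM scaling in any comparison. In HME against control, DESeq2 called Vtn (FDR 0.00183), Cfi (FDR 0.0102) and Serping1 (FDR 0.0140) as higher, and edgeR gave Vtn an FDR of 0.0403 to 0.0491 with DESeq2's size factors or another filter on low counts. Vtn (vitronectin), which blocks the pore and also stabilizes an inhibitor of plasmin formation, was at 3275, 3093 and 3525 CPM in the control rats, 5714, 4377 and 3746 CPM in the model rats and 4506, 4329.6 and 5286 CPM in the HME rats. All 6 rats on fructose exceeded the control rats, and model replicate 1 was the highest. The changes were 0.48 in model against control (SE 0.195, edgeR FDR 0.335) and 0.51 in HME against control (SE 0.134, edgeR FDR 0.0523). Serping1, the inhibitor of C1 and of kallikrein, was at 656 ± 22.5, 858 ± 149 and 878 ± 98.0 CPM in the control, model and HME groups, again with no overlap between the 6 rats on fructose and the control rats. Cfi, which cleaves C3b and C4b, was at 1018 ± 36.3, 1228 ± 269 and 1424 ± 209 CPM, and its model rats overlapped the control rats. The chains of C4b-binding protein differed, with C4bpa at 700.1 ± 14.1, 817 ± 82.1 and 859.6 ± 68.2 CPM and C4bpb at 404 ± 29.3, 457 ± 95.6 and 409 ± 58.0 CPM. Their ratio was 1.74 ± 0.0884, 1.82 ± 0.293 and 2.12 ± 0.226 in the control, model and HME groups. Each HME rat exceeded each control rat in this ratio, and the model rats, from 1.51 to 2.10, spread to both sides of the control rats.

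**Figure D2:**
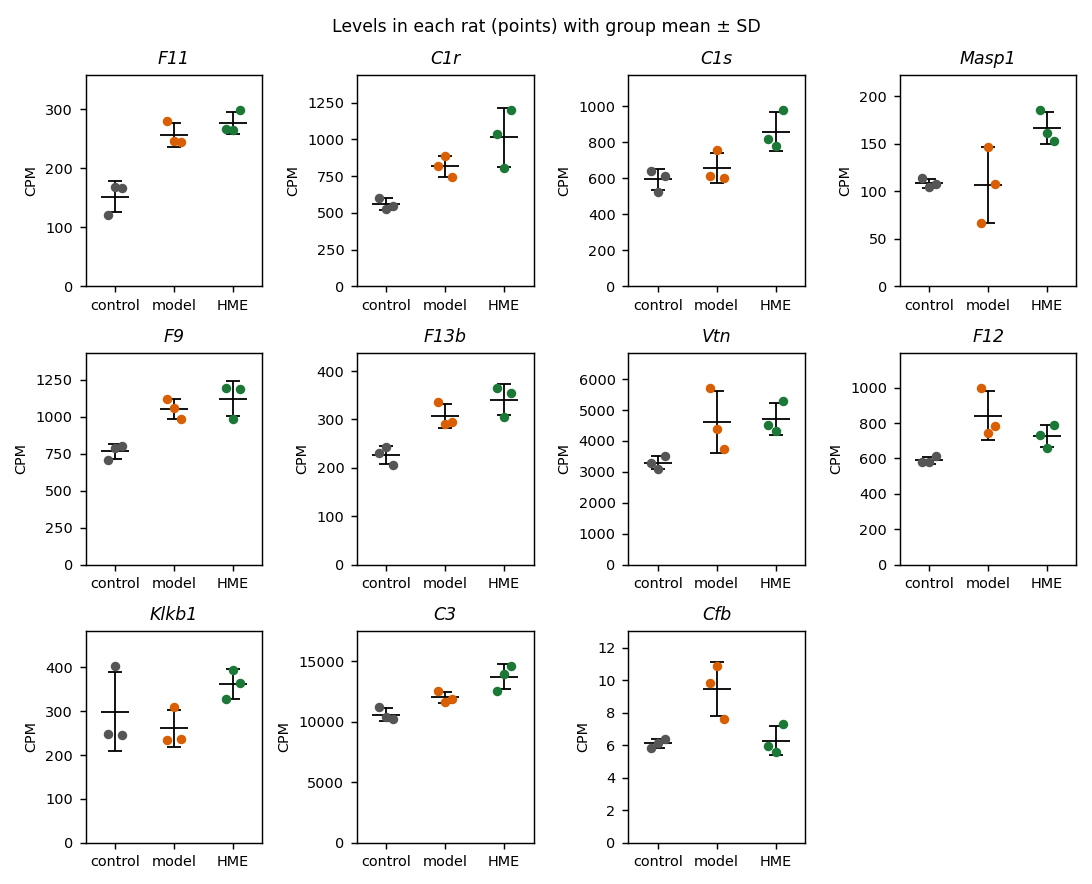
Levels (CPM, vertical axes starting at 0) of the 11 genes whose values are given for every rat because of their test results, with a point for each rat of the control, model and HME groups and bars for the mean ± SD of 3 rats. F11, C1r, F9, F13b, Vtn, F12 and C3 have all 6 rats on fructose above the control rats, while Masp1 and Klkb1 have control and model rats that overlap.

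In the contact system, F11 rose in the HME group. F11 (factor XI, ENSRNOG00000013684), which activates factor IX, was at 121, 167 and 167 CPM in the control rats, 279.7, 245 and 245 CPM in the model rats and 266, 265 and 299 CPM in the HME rats. The control rats lay far below the other 6, and the model and HME rats overlapped. The fold change was 0.86 in HME against control (SE 0.150, edgeR FDR 0.0120), 0.76 in model against control (SE 0.168, edgeR FDR 0.111) and 0.11 in HME against model (SE 0.134, edgeR FDR 0.888). In HME against control F11 kept an FDR of at most 0.0364 under each of the 15 alternatives, with any rat left out and with scaling to the hepatocyte markers, where the change was 0.57. In model against control the FDR ran from 0.00626 with DESeq2 to 0.319 with the replicate number as a block.

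F12 (factor XII), which starts the contact system, was at 577, 581 and 612 CPM in the control rats, 998, 743 and 786 CPM in the model rats and 731, 661 and 788 CPM in the HME rats. The 6 rats on fructose lay above the control rats, and the change in model against control was 0.51 (SE 0.163, edgeR FDR 0.227). Klkb1 (plasma prekallikrein), which activates and is activated by factor XII, was at 248, 403 and 246 CPM in the control rats, 235, 311 and 238 CPM in the model rats and 327, 394 and 365 CPM in the HME rats. The HME rats were above the model rats, by 0.48 (SE 0.160, edgeR FDR 0.461), but control replicate 2 was the highest of all 9. Kng1, the kininogen from which bradykinin is cut, was at 906 ± 166, 1057 ± 43.6 and 1084 ± 232 CPM in the control, model and HME groups. The rat has near-identical kininogen genes whose reads are hard to assign, so the level of Kng1 is uncertain.

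Of the vitamin K dependent clotting factors F2, F7, F9 and F10 and the cofactor F5, F9 was the one gene called, with edgeR and with DESeq2, and it rose. F9 (factor IX, ENSRNOG00000003430), the factor missing in haemophilia B, was at 709.8, 786 and 801 CPM in the control rats, 1119, 1057 and 985 CPM in the model rats and 1193, 985 and 1186 CPM in the HME rats. The control rats did not reach the other 6. The change was 0.55 in HME against control (SE 0.130, edgeR FDR 0.0381) and 0.46 in model against control (SE 0.142, edgeR FDR 0.218). F2 (prothrombin) was at 1992 ± 42.8, 2305 ± 346 and 2231 ± 169.9 CPM in the control, model and HME groups, with a coefficient of variation of 11.05% over the 9 rats, the third smallest. F10, whose active form makes thrombin, was at 407 ± 23.2, 503 ± 97.5 and 433 ± 35.7 CPM, and F7, the partner of tissue factor, at 73.4 ± 4.59, 79.6 ± 15.9 and 74.0 ± 11.5 CPM. F5, the cofactor of factor X, was at 172 ± 7.28, 165 ± 37.2 and 193 ± 47.9 CPM. The HME and control rats overlapped in F5, F7 and F10, and model replicate 1 was the highest rat in F2, F7 and F10.

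In the fibrin group F13b rose, and none of the 3 fibrinogen genes passed edgeR's test, while DESeq2 called Fgg in HME against control (FDR 0.0459). F13b (ENSRNOG00000012613), the carrier subunit of the enzyme that crosslinks fibrin, was at 231, 243 and 205 CPM in the control rats, 336, 289.7 and 295 CPM in the model rats and 365, 304 and 354 CPM in the HME rats. All 6 rats on fructose exceeded the control rats. The change was 0.59 in HME against control (SE 0.124, edgeR FDR 0.0263) and 0.44 in model against control (SE 0.140, edgeR FDR 0.232). Fga, Fgb and Fgg encode the chains of fibrinogen and lie together in the genome. Fga was at 5067 ± 242, 5700.3 ± 868 and 6304 ± 655 CPM in the control, model and HME groups, Fgb at 4835 ± 258, 5388 ± 1207 and 5800.4 ± 656 CPM, and Fgg at 3776 ± 36.0, 4465 ± 648 and 4857 ± 604 CPM. The HME rats lay above the control rats in Fga and Fgg, and those of Fgb overlapped them. While the highest rat was 1.43 times the lowest in Fga and 1.48 times in Fgb, the ratio of the 2 genes stayed between 0.982 and 1.14. Together the fibrinogen genes took 1.46 ± 0.0921%, 1.49 ± 0.147% and 1.64 ± 0.151% of all counts in the control, model and HME groups.

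Among the genes against clotting, Proc (protein C), which inactivates factors V and VIII, was at 409.6 ± 23.7, 557 ± 101 and 541 ± 47.9 CPM in the control, model and HME groups, and Pros1 (protein S), its cofactor, at 236 ± 15.7, 294 ± 11.1 and 311 ± 17.5 CPM. Serpinc1 (antithrombin), the inhibitor of thrombin and factor X, was at 2182 ± 106, 2715 ± 684 and 2750.4 ± 275 CPM, with model replicate 1 at 3505 CPM and the other model rats at 2316 and 2325 CPM. In all 3 genes the 6 rats on fructose lay above the control rats. In HME against control DESeq2 called Proc (FDR 0.0176) and Pros1 (FDR 0.0104) as higher, while the lowest edgeR FDR in this group of 4 genes was 0.0719. Serpind1 (heparin cofactor II), another inhibitor of thrombin, was at 776 ± 66.5, 755 ± 96.3 and 709 ± 50.4 CPM with overlap between all groups and a coefficient of variation of 9.41%, the second smallest.

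Of the genes that dissolve fibrin or hold that back, Plg (plasminogen) was at 3159 ± 350.4, 3837 ± 570.1 and 4429.9 ± 270.1 CPM in the control, model and HME groups. Serpinf2, the main inhibitor of plasmin, was at 573 ± 62.4, 657 ± 47.4 and 729.8 ± 67.0 CPM. Cpb2, a carboxypeptidase that slows fibrin breakdown, was at 415 ± 14.2, 603 ± 129.7 and 565 ± 49.2 CPM. The HME rats of all 3 genes lay above the control rats, and in Cpb2 the model rats did so too. In HME against control DESeq2 called Plg (FDR 0.00450) and Cpb2 (FDR 0.00330) as higher. With edgeR the lowest FDR in this group of 4 genes was 0.0549, and Cpb2 was at 0.0484 without the filter on low counts. Hrg, a plasma protein that binds plasminogen and heparin, was at 1059.8 ± 193, 1092 ± 307 and 961 ± 73.9 CPM, with overlap between all groups.

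**Figure D3:**
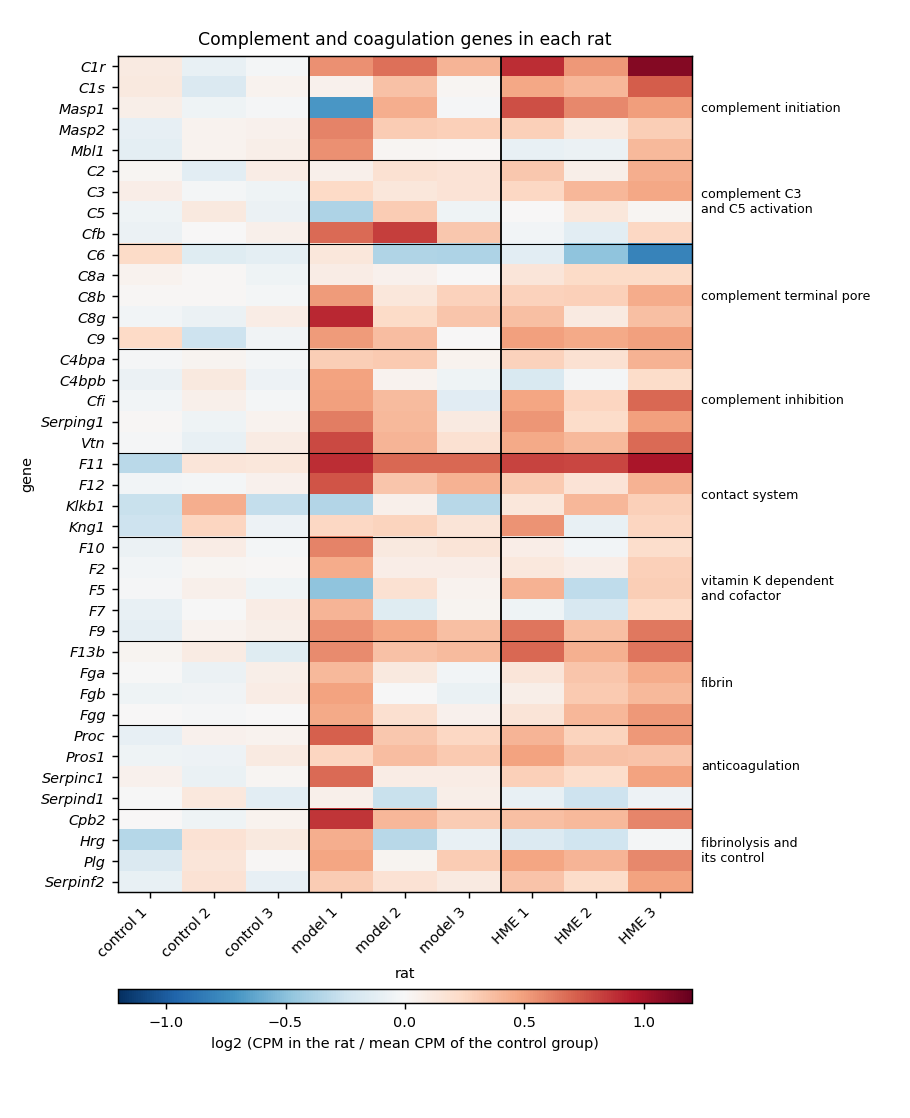
Level of each of the 40 genes (rows, grouped by role) in each of the 9 rats (columns), as log2 of its TMM-scaled CPM over the mean of the control rats (colour scale, red higher). The 6 columns of the model and HME groups are mostly red, with Masp1 in model 1 and C6 in HME 3 among the blue cells. This tendency was not present with scaling to the hepatocyte markers, which lowers every gene by the change of those markers.

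Over the 40 genes, the order of the group means was control, model, HME in 22 genes and control, HME, model in 11. The 4 genes Masp1, Klkb1, C5 and F5 had the model group lowest and the HME group highest, the 2 genes C6 and Serpind1 had the reverse of the most frequent order, and in Hrg the HME group was lowest and the model group highest. In 18 of the 40 genes, 45%, all 6 rats on fructose lay above all 3 control rats, and in 0 genes below. Across all genes the share above was 6.04% and that below 5.75%, and among genes with over 1000 counts in every library it was 12.7%. The 18 genes were C1r, Masp2, C3, C8b, C8g, C4bpa, Serping1 and Vtn of complement and F2, F9, F11, F12, F13b, Fgg, Proc, Pros1, Serpinc1 and Cpb2 of coagulation. This count depended on the scaling. It was 18 with DESeq2's size factors and 9 with library size alone, with 2.38% of all genes, and it was 2, F11 and Proc, with scaling to the hepatocyte markers, with 0.845% of all genes.

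**Figure D4:**
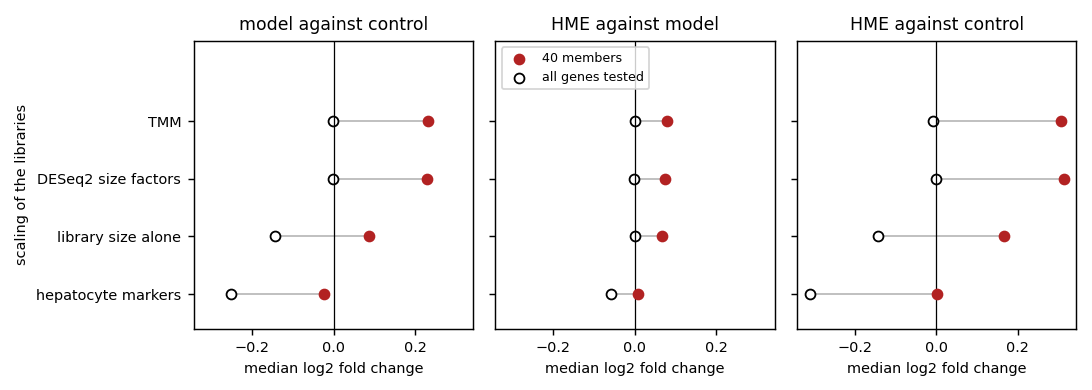
Median log2 fold change (horizontal axis) of the 40 genes (filled points) and of all genes tested (open points) under 4 scalings of the libraries (vertical axis) in the 3 comparisons. Scaling to hepatocyte markers moves the medians of the 40 genes to -0.02, 0.01 and 0.00 and those of all genes to -0.25, -0.06 and -0.31. A scaling moves all genes of a library alike, so the gap between the medians is not a test of the 40 genes.

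With scaling to the hepatocyte markers, the median of all genes was -0.25 in model against control, -0.06 in HME against model and -0.31 in HME against control. The medians of the 40 genes were -0.02, 0.01 and 0.00, at the level of the hepatocyte markers. Since a scaling moves all genes of a library alike, their gap to all genes was bound to stay about as with TMM. That gap is therefore no support for a change of the 40 genes. Library size alone gave medians of 0.09, 0.07 and 0.17 for the 40 genes and -0.14, 0.00 and -0.14 for all genes. The part of the hepatocyte markers in the higher levels of complement and coagulation genes was not tested.

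Without any scaling between libraries, the 40 genes took 5.12 to 5.65% of all counts in the control rats (5.35 ± 0.272%), 5.33 to 5.86% in the model rats (5.68 ± 0.306%) and 5.96 to 6.29% in the HME rats (6.16 ± 0.179%). The HME rats lay above all others, and the model and control rats overlapped. The complement genes took 2.36 ± 0.207%, 2.53 ± 0.165% and 2.79 ± 0.0692% in the control, model and HME groups, and the coagulation genes 3.00 ± 0.0710%, 3.15 ± 0.212% and 3.37 ± 0.110%. Alb, the most counted gene, took 10.8 ± 0.976%, 12.3 ± 0.530% and 11.6 ± 0.984%.

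**Figure D5:**
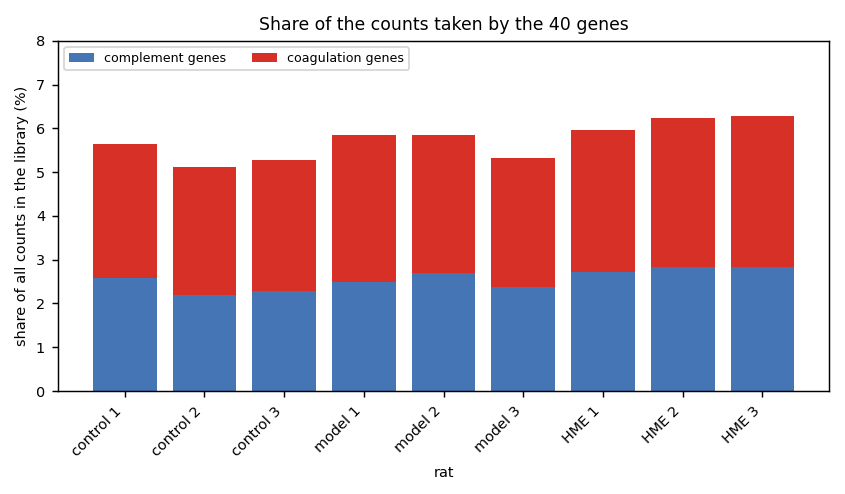
Share of all counts in the library (percent, vertical axis from 0) taken by the complement and the coagulation genes in each of the 9 rats, stacked. The 3 HME rats reach 5.96 to 6.29%, above the 5.12 to 5.86% of the control and model rats.

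In 36 of the 40 genes the highest rat was under 2 times the lowest. The median coefficient of variation of the 40 over the 9 rats was 17.4%, and the largest was that of Masp1, 28.8%. The median of all genes tested was 20.8%, but these include many genes with fewer counts. Whether the 40 genes vary less than genes of like counts was not tested. Model replicate 1, the deepest library with the lowest TMM factor, 0.871, was the highest rat in 17 of the 40 genes. Without it the median was 0.16 in model against control and 0.13 in HME against model, and the number of genes without overlap in HME against model was 15 in place of 6, while the share of all genes without overlap was 24.3% in place of 14%.

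The other genes of these pathways were a mixed list. It held genes made by other or several cell types, receptors, genes of endothelium and platelets, further inhibitors, the plasmin system and the vitamin K cycle. Some of them, such as Serpina1, which is also among the hepatocyte markers, are made by hepatocytes. As a list they had no common direction, with 19 positive and 27 negative in model against control. Of 55 in the table, 46 were tested in each comparison with the model group, and 0 reached an FDR of 0.05 there with edgeR. Across all genes 0.601% did in model against control and 0.456% in HME against model. At an unadjusted p under 0.05 there were 5 and 3 in these comparisons, where 13.2% and 8.02% of all genes were at that level. In model against control the smallest p belonged to A2m (alpha-2-macroglobulin), with a change of -2.74 at 1 to 25 counts (SE 0.664, edgeR FDR 0.122), followed by Ggcx and Nqo1. In HME against model it belonged to Vkorc1, with -0.73 (SE 0.209, edgeR FDR 0.368), followed by Itga2b, a platelet integrin, and Serpina5, an inhibitor of protein C, with 0.48 and -0.81. In HME against control 47 were tested, and those reported here at an FDR of 0.05 are 1 that rose and 3 that fell. Across all genes edgeR called 7.21% at that FDR, 3.54% as higher and 3.67% as lower. Serpina10, the inhibitor of factor X that works with protein Z, was at 6.01, 4.72 and 3.46 CPM in the control rats, 14.5, 6.56 and 4.14 CPM in the model rats and 13.7, 14.6 and 16.6 CPM in the HME rats. Its HME rats lay above the control rats, and with a change of 1.64 (SE 0.202, edgeR FDR 0.00264) it was the one gene of this list that met the thresholds of the study. Nqo1, Lman1 and Anxa2 fell by 0.80 (SE 0.154, edgeR FDR 0.0186), 0.56 (SE 0.122, edgeR FDR 0.0284) and 0.98 (SE 0.232, edgeR FDR 0.0395) on the log2 scale. Lman1 carries factors V and VIII out of the endoplasmic reticulum, and Anxa2 is a surface receptor for plasminogen.

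Nqo1 can reduce vitamin K, and Ggcx, Vkorc1 and Vkorc1l1 are enzymes of the vitamin K cycle. In HME against control all 4 of these had a negative change, where 50.9% of all genes did. With edgeR 1 of 4, Nqo1, was past an FDR of 0.05, where 7.21% of all genes were. All 4 were lower at an unadjusted edgeR p under 0.05, where 12.5% of all genes were, but Vkorc1l1 had only 3 to 17 counts. Ggcx, which carboxylates the vitamin K dependent factors, was at 106 ± 11.2, 76.6 ± 8.96 and 81.4 ± 8.70 CPM in the control, model and HME groups, with model against control at -0.47 (SE 0.149, edgeR FDR 0.227). Vkorc1, the target of warfarin, was at 138 ± 4.56, 184 ± 43.7 and 111 ± 20.3 CPM, and its HME rats lay below its model rats. Of 17 transcription factors and cytokine signalling genes of the liver, Hnf4a, Cebpa and Cebpb among them, 0 reached an FDR of 0.05 with edgeR in any comparison. At an unadjusted p under 0.05 there were 7, 2 and 1 in model against control, HME against model and HME against control. Across all genes 13.2%, 8.02% and 24.3% were at that level, and 0.601%, 0.456% and 7.21% reached the FDR of 0.05.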

How the data were processed

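Poly(A) RNA of 9 rat livers was sequenced. The authors used HISAT2 for alignment and HTSeq 0.6.1 for unstranded counting on the exons of each gene (build Rnor 6.0 per the labels), and they deposited raw counts. The counts of overlapping genes and of near-identical copies such as C4a and C4b are therefore uncertain. Only this count table was used here. A second table, of assembled transcripts, was left out since its unit is not stated. Rats were grouped by their titles and treatment labels, and dose and times are those of the study's methods.

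For each pair of groups, edgeR 4.0.16 (R 4.3.3) was run on the 6 libraries concerned (filterByExpr, TMM, robust glmQLFit, two-sided glmQLFTest), and p-values were adjusted by Benjamini-Hochberg over all genes tested (12486, 12502 and 12633). SE is the absolute log2 fold change over the square root of F. The tests were tried on simulated counts first. Total counts of at least 14345819 per library leave counting error small beside the spread between rats. Replicate numbers did not pair the samples, since no same-numbered pair of rats deviated together (correlations from -0.26 to -0.01).

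Members, gene lists and tests were chosen with earlier results of these data known. Named genes are the listed members, the genes of other pathway lists that met the thresholds of the study or had the 3 smallest p-values in a comparison, and C8a, Serpind1 and F2 for their small variation. Anxa2 and Vkorc1l1, and the members called under other scalings, were named after their values were seen. Of the other lists, Itgam, Ahsg, Pecam1 and Hba1 were not matched in the table. Results of some single genes are left out here. Alternatives were no filter, library size alone, DESeq2's size factors, at least 10 counts in every library, the test of DESeq2 1.42.0, one fit over 9 libraries, a replicate block, thinning to the smallest library and each rat left out. Scaling to the 9 hepatocyte markers and the count of rats on fructose above the controls were added after seeing the data. No rat genome or rat sequences were used here, so no positions or sequences are given.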

Additional observations from a re-analysis of the deposited data

How the results depend on the processing

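In model against control, the median of the 40 genes was 0.0872 with library size alone, -0.0224 with scaling to hepatocyte markers and 0.16 to 0.31 with 1 rat left out, lowest without model replicate 1 and highest without model replicate 3. An FDR of 0.05 was reached by 1 gene without the filter (F11, 0.984% of all genes), 2 with DESeq2 (F11 and C1r, 2.22%) and 1 in the fit over 9 libraries (1.05%), and the thresholds of the study by 1 with DESeq2 (F11, 1.24%). Genes without overlap numbered 12 with library size alone (22.2% of all genes) and 8 with scaling to hepatocyte markers (22.9%), the latter no more than the background. In HME against model they numbered 7 to 15 with 1 rat left out, 15 without model replicate 1 (24.3% of all genes) and 13 without HME replicate 2 (21.1%). In HME against control, the median was 0.17 with library size alone and 0.00 (0.000137) with scaling to hepatocyte markers, where 15 genes did not overlap, 7 above and 8 below, near the 39.0% of all genes. The thresholds of the study were met by 1 gene with library size alone (1.88% of all genes), 4 without the filter (2.56%), 7 with DESeq2 (4.02%) and 0 to 1 with 1 rat left out. An FDR of 0.05 was reached by 3 genes with library size alone (7.65% of all genes, the same level), 9 without the filter (5.77%), 17 with DESeq2 (7.06%) and 1 to 6 with 1 rat left out (2.59% to 5.13%), with 1 gene left without control replicate 2, control replicate 3 or HME replicate 1, 3 without HME replicate 3 and 6 without HME replicate 2. The replicate block, in which same-numbered rats share a term, left 3 genes at that FDR (4.04% of all genes), with F13b and F9 lost, and 0 in the other comparisons. The count of 18 genes with all rats on fructose above the controls was 9 with library size alone (2.38% of all genes) and 2 with scaling to hepatocyte markers (0.845%). Without Alb in the total, the 40 genes took 5.996%, 6.47% and 6.98% of counts in the control, model and HME groups. Leaving out a rat also leaves fewer samples for each fit, and scaling to hepatocyte markers lowers every gene by the change of those markers. The other causes were not tested. No result changed sign with a call. Of the values of single genes under an alternative, 238 kept their side of an FDR of 0.05, 24 lost it and 8 gained it.

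With 3 rats a group, the SE exceeded the size of the change for several of the 40 genes in model against control. Fgb (0.16, SE 0.197) and C5 (-0.02, SE 0.184) were among them. Most changes given here with an SE were larger than it, such as F11 in model against control (0.76, SE 0.168). Levels were not compared between genes, since rat transcript lengths were not used here. The hepatocyte markers were higher in both groups on fructose, and whether the 40 genes changed apart from them cannot be told apart from the choice of scaling.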
